A study of Homo sapiens with 3 samples.

Results

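The transcripts described here are those of 9 transcription factors reported to bind or drive the 5′ untranslated region of LINE-1 (L1): *YY1*, *RUNX1*, *RUNX3*, *SOX2*, *SOX11*, *SP1*, *SP3*, *CTCF* and *MYC*. They were taken by name, and all 9 were among the 23284 gene names of the RNA-seq tables. The study compared transcriptomes of 293T cells, a line derived from human embryonic kidney, in which dCas9-VP64 was expressed with a guide vector named mock, sgL1ASP #1 or sgL1ASP #3. dCas9-VP64 is a Cas9 that binds DNA without cutting it, fused to a transcriptional activator, and it was present in all 3 groups, mock included. Mock was the empty parental guide vector, and each sgL1ASP guide directs dCas9-VP64 to the L1 antisense promoter (ASP). The methods describe delivery by plasmids and state no sort of the cells that had taken them up, and in such bulk RNA fewer expressing cells and less RNA per cell cannot be told apart. There was 1 library per condition. Without replicates, differences are given as values and none was tested.

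The L1 5′ UTR is an internal promoter: it drives the L1 mRNA in the sense direction and, from its ASP, chimeric transcripts in the antisense direction. YY1, a zinc finger protein, binds near its first bases and sets where sense transcription begins. RUNX sites and SOX sites lie further inside, and RUNX3 and SOX11 have been reported as activators, while SOX2 has been linked to L1 silencing in neural stem cells. SP1 and SP3 bind GC boxes, CTCF is the insulator protein that stops cohesin, and MYC is a growth regulator that binds E boxes as a dimer with MAX. The question asked of the data was which of these factors 293T cells transcribe, and whether their transcripts differed once dCas9-VP64 was sent to L1.

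The unit throughout is FPKM as deposited, that is, the fragments of a gene divided by its exon length and by a measure of library size. How the authors scaled that measure between libraries is not given in the sources used here. FPKM is a level per length, so levels of different genes can be set side by side. The values sum to between 619902.5 and 673483.0 in a library, and the depth was estimated at between 8700000 and 10400000 reads. Of the 9 factors, 7 had mean FPKM of at least 1 over the 3 libraries, as did 12830 of all genes, and *RUNX3* and *SOX11* did not. As a check of the label, vimentin (*VIM*) had FPKM 807.4 to 903.5, and 7 of 9 markers fixed for 293T cells were at FPKM 1 or more in each library. The summed FPKM of these markers was 967.3 to 1061.2. Of 7 blood cell markers, 4, *PTPRC*, *CD3E*, *GATA1* and *HBB*, were at 0 in each library. Of 6 markers of pluripotent cells, 0 reached FPKM 1, and the sum was 0.26 to 0.68.

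The factors' own promoters were read in the RefSeq windows of GRCh38.p14, from 250 bases before to 50 after the start, which hold 7 of the 9 (not *SOX11* and *MYC*). Only 1 window was kept for each gene name, so other starts of genes with several transcripts, such as *RUNX1* with 18, were not read. Short motifs of their families were searched on both strands. The GC box GGGCGG, which SP1 and SP3 bind, occurs in the windows of all 7, from 1 match in *SOX2* and *RUNX3* to 8 in *YY1*, and in 44.6% of 27305 promoters. The YY1 motif AAGATGG occurs in *SP1* only (6.06% of promoters), where it overlaps a GC box. The RUNX motif TGTGGT occurs in *RUNX3* only (13.1%), with 2 matches. The E box CACGTG (7.43%) and the SOX motif ATTGTT (10.3%) occur in 0 of the 7. A match is a run of letters and no measured binding. Of these sites, those below are examples and not the full set, and none is from *YY1*, *RUNX1* or *CTCF*. Each holds, in the promoter of 1 of the factors, a motif of the same or another factor. The named motif is in capitals. Further matches in a stretch, a GC box overlapping the AAGATGG match of *SP1* and the other RUNX match of *RUNX3*, are not marked. The sequence is on the strand of the gene:
SP1, GC box 46 bases before the start, chr12:53380122-53380143, plus strand: cagagaagGGGCGGggcctagg
SP1, reverse complement of AAGATGG, chr12:53379930-53379952, plus strand: gctcccgcCCATCTTcacttcct
SP3, GC box 22 bases before the start, chr2:173965382-173965403, minus strand: aagaagagGGGCGGgagttccg
SOX2, reverse complement of the GC box, chr3:181711805-181711826, plus strand: gggaggccCCGCCCcctttcat
RUNX3, reverse complement of TGTGGT, chr1:24965128-24965149, minus strand: gtccctcaACCACAgaaccaca

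*MYC*, *YY1*, *CTCF*, *SP1* and *SP3* were well expressed, *SOX2* and *RUNX1* were low, and *RUNX3* and *SOX11* were at the limit of detection. *MYC* was the highest, with FPKM 69.4 (mock), 71.3 (sgL1ASP #1) and 68.0 (sgL1ASP #3), above 91.7% to 92.2% of the genes detected in a library. *YY1* had FPKM 54.6 (mock), 55.8 (sgL1ASP #1) and 50.9 (sgL1ASP #3). *CTCF* had FPKM 24.8 (mock), 22.3 (sgL1ASP #1) and 21.9 (sgL1ASP #3). These genes encode the E box, initiator and insulator factors, and their ranges over the libraries did not overlap one another.

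Of the pair of GC box proteins, *SP1* had FPKM 18.97 (mock), 17.62 (sgL1ASP #1) and 18.65 (sgL1ASP #3). *SP3* had FPKM 12.97 (mock), 13.16 (sgL1ASP #1) and 12.07 (sgL1ASP #3). *SP1* was the higher gene in every library, by 1.34-fold to 1.55-fold. *SOX2*, an HMG box protein of stem and neural progenitor cells, had FPKM 2.06 (mock), 3.05 (sgL1ASP #1) and 2.34 (sgL1ASP #3). *RUNX1*, a Runt domain protein best known from blood development, had FPKM 1.44 (mock), 1.53 (sgL1ASP #1) and 1.27 (sgL1ASP #3). The descending order *MYC*, *YY1*, *CTCF*, *SP1*, *SP3*, *SOX2*, *RUNX1* was the same in each library, and no neighbours in it had overlapping ranges.

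*RUNX3* was listed at 0 in mock and had FPKM 0.0237 in sgL1ASP #1 and 0.0282 in sgL1ASP #3. *SOX11* had FPKM 0.0112 in mock, was listed at 0 in sgL1ASP #1 and had FPKM 0.0269 in sgL1ASP #3. These values correspond to single reads. The ratio of sgL1ASP #1 to sgL1ASP #3 for *RUNX3*, 0.8418, is close to 0.8419, the ratio shared by 351 of 1409 genes with FPKM under 0.3 in both libraries, at which the number of reads is equal. For *SOX11*, sgL1ASP #3 to mock was 2.4067, which is 2 times the equal-read ratio of 1.2033. At the estimated depth *SOX11* had 1, 0 and 2 reads (mock, sgL1ASP #1, sgL1ASP #3) and *RUNX3* about 0, 1 and 1. A count of 0 allows up to 3 reads, which is FPKM 0.0707 for *RUNX3* in mock and 0.034 for *SOX11* in sgL1ASP #1, so every value of both genes lies under that limit and no fold is given. The pair cannot be ordered.

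**Figure D1:**
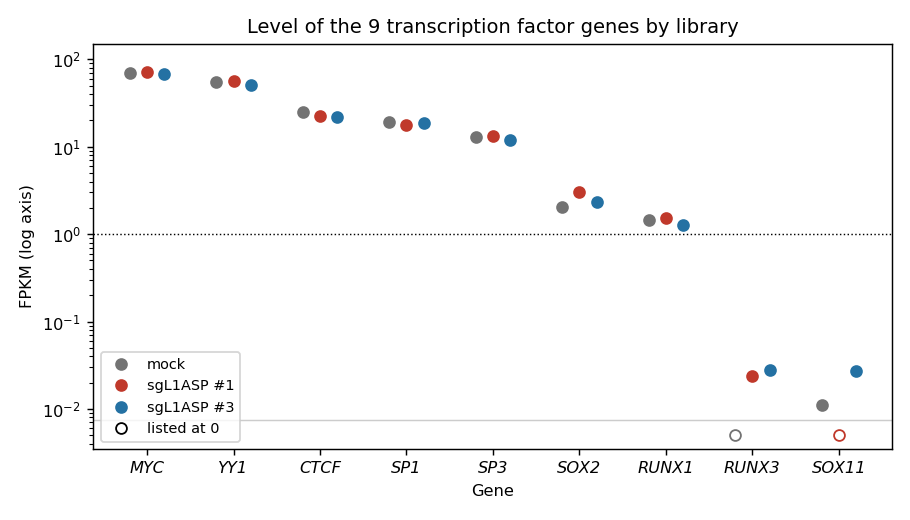
FPKM of each of the 9 genes (log axis) in mock (grey), sgL1ASP #1 (red) and sgL1ASP #3 (blue), 1 library per condition. Open circles under the grey line are values listed at 0, and the dotted line is FPKM 1. The 3 points of a gene lie close together from *MYC* (68.0 to 71.3) down to *RUNX1* (1.27 to 1.53), while *RUNX3* and *SOX11* stay under 0.03.

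The genes lie on different chromosomes, apart from *SP3* and *SOX11*, which are both on chromosome 2. All are protein-coding in GENCODE 44 on GRCh37, the sequence also known as hg19, to which the reads were mapped. *SOX2* is a gene of 1 exon on the plus strand of chromosome 3 from 181429713 to 181432224, and *SOX11*, also of 1 exon, is on the plus strand of chromosome 2 from 5832516 to 5841517. *RUNX1* spans chromosome 21 from 36160098 to 37376965 on the minus strand, and *RUNX3* chromosome 1 from 25226002 to 25291612, also on the minus strand. *SP1* lies on the plus strand of chromosome 12 from 53773960 to 53810230, and *SP3* on the minus strand of chromosome 2 from 174745578 to 174830101. *YY1* lies on the plus strand of chromosome 14 from 100704635 to 100749125, and *CTCF* on the plus strand of chromosome 16 from 67596370 to 67673080. *SOX2* overlaps the span of the noncoding gene *SOX2-OT* on the same strand, so strand alone does not separate the 2 genes. Whether their exons overlap was not examined. *SOX2-OT* itself had FPKM 0.0416 in mock, was listed at 0 in sgL1ASP #1 and had FPKM 0.0501 in sgL1ASP #3. These values rest on very few reads, and no difference is read from them.

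Differences between libraries were taken on the log2(FPKM + 0.1) scale, which understates those of low genes, and a gene was called when it passed 1.5-fold in either direction, the study's threshold. Of the 7 factors with mean FPKM of at least 1, 0 were called in sgL1ASP #1 against mock, where 3.55% of the 12830 genes were called. In sgL1ASP #3 against mock 0 were called, where 3.8% of all genes were. Between sgL1ASP #1 and sgL1ASP #3 0 were called, where 3.77% of all genes were. At such shares a count of 0 among 7 genes is near the background, and nothing particular to the factors is read from it. The 3 comparisons share libraries and are not independent. Over the 3 libraries the highest FPKM was less than 25% above the lowest for 6 of the 7 factors, as for 80.3% of all genes, from 1.049-fold in *MYC* to 1.20-fold in *RUNX1*, and *SOX2* was the exception at 1.48-fold.

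*SOX2* was the factor with the largest difference. On the scale of log2(FPKM + 0.1) it was 0.54 higher with sgL1ASP #1 than with mock, just under the limit of 0.585, and 1.48-fold in FPKM. It was 0.17 higher with sgL1ASP #3 than with mock and 0.37 higher with sgL1ASP #1 than with sgL1ASP #3. The FPKM of *SOX2* in the 3 libraries stand in the ratios of whole reads, 50 (mock), 73 (sgL1ASP #1) and 47 (sgL1ASP #3). The exact 95% Poisson intervals of these reads are 37.1 to 65.9, 57.2 to 91.8 and 34.5 to 62.5. The libraries differ in depth, at 0.987 (sgL1ASP #1) and 0.831 (sgL1ASP #3) relative to mock. The intervals are therefore not set against one another. Counting error alone, which leaves out the spread between cultures, gives a standard error of 0.265 on the first difference, 0.293 on the second and 0.27 on the third. A difference at least as large as that of sgL1ASP #1 against mock, in either direction, was found in 4.11% of all genes with mean FPKM of at least 1, and in 10.8% of the 3349 genes with mean FPKM from 1 to 5, the range of *SOX2*. In that range 9.29% of genes passed 1.5-fold, against 0.991% of the 4844 genes from 5 to 20.

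On the same scale *RUNX1* differed from mock by 0.087 with sgL1ASP #1 and by -0.162 with sgL1ASP #3, at counting errors of 0.216 and 0.238. Read numbers of *RUNX1* and of the factors that follow are estimates, since these genes have several annotated transcripts, and for *RUNX1* they were 86.6 (mock), 91.2 (sgL1ASP #1) and 63.9 (sgL1ASP #3). *CTCF* was lower with both guides, by a difference of -0.151 for sgL1ASP #1 and -0.174 for sgL1ASP #3, at counting errors of 0.069 and 0.072. Among the 3776 genes with mean FPKM from 20 to 100, 15.6% and 10.1% differed at least as much. The estimated reads of *CTCF* were 934, 831 and 689.

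*YY1* differed by 0.032 between sgL1ASP #1 and mock, by -0.102 between sgL1ASP #3 and mock and by 0.134 between the guides. With between 2799 and 3648 estimated reads in a library, the counting errors were 0.034 to 0.036, so the last 2 differences exceed counting error, while 30.2% and 18.3% of genes of like FPKM differed as much. *SP3* followed a like pattern at 0.021, -0.103 and 0.124, with counting errors of 0.052 to 0.055. *SP1*, its relative, differed by -0.106, -0.024 and -0.082, with counting errors of 0.054 to 0.057, and so was lowest with sgL1ASP #1 rather than with sgL1ASP #3. *MYC* differed by 0.038, -0.031 and 0.069, with counting errors of 0.040 to 0.043. *YY1* was not the only factor with differences beyond counting error. In units of that error *CTCF* stood at -2.19 (sgL1ASP #1) and -2.41 (sgL1ASP #3) against mock. *SP3* stood at 2.25 between the guides, and *SOX2* at 2.05 with sgL1ASP #1 against mock. Of the 7 factors, 5, *YY1*, *RUNX1*, *SP3*, *CTCF* and *MYC*, had their lowest FPKM in sgL1ASP #3, as did 32.3% of all genes, and 5, *YY1*, *RUNX1*, *SOX2*, *SP3* and *MYC*, their highest in sgL1ASP #1, as did 33.1%. With every library rescaled to the same summed FPKM, which lowers both guide libraries against mock, sgL1ASP #3 held the lowest value of 5 factors, as it did for 50.4% of all genes, and mock held the highest value of 6, as it did for 65.5% of all genes. The median difference of the 7 was 0.032 for sgL1ASP #1 and -0.102 for sgL1ASP #3, beside 0.001 and 0.001 over all genes.

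**Figure D2:**
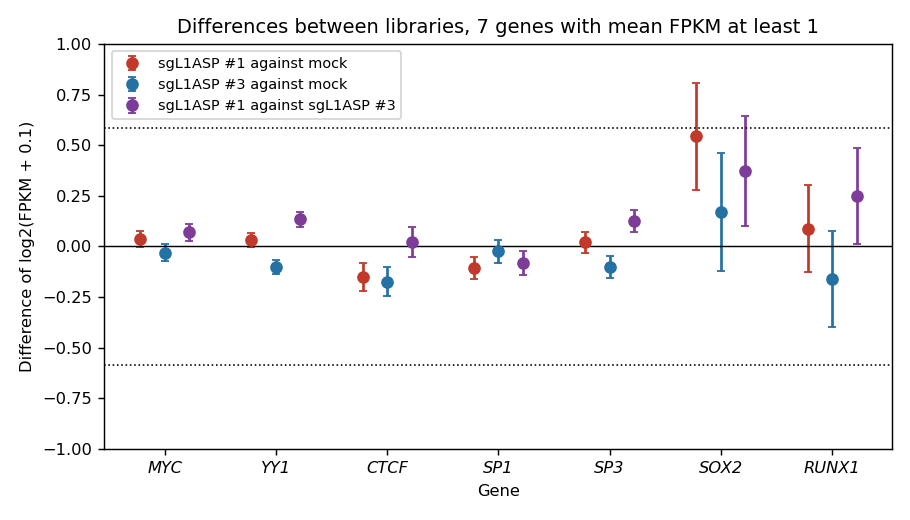
Difference of log2(FPKM + 0.1) for the 7 genes with mean FPKM of at least 1, in sgL1ASP #1 against mock (red), sgL1ASP #3 against mock (blue) and sgL1ASP #1 against sgL1ASP #3 (purple). Bars are 1 standard error of read counting and hold no replicate spread, and dotted lines mark 1.5-fold. All points lie between the dotted lines, and *SOX2* with sgL1ASP #1 is nearest to them, at 0.54.

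The study selected genes by a stepwise rule, with sgL1ASP #3 over 1.5-fold above mock and sgL1ASP #1 over 1.5-fold above sgL1ASP #3. Here it was applied with the pseudocount of 0.1 and to the 12830 genes with mean FPKM of at least 1. Both steps were passed by 0 of the 7 factors, beside 0.0701% of these genes, which is 9. The study states neither condition and its own list of genes was longer, so this share is not the yield of its rule. The order mock, sgL1ASP #3, sgL1ASP #1 without a threshold was followed by 1 factor, *SOX2*, beside 16.5% of all genes.

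**Figure D3:**
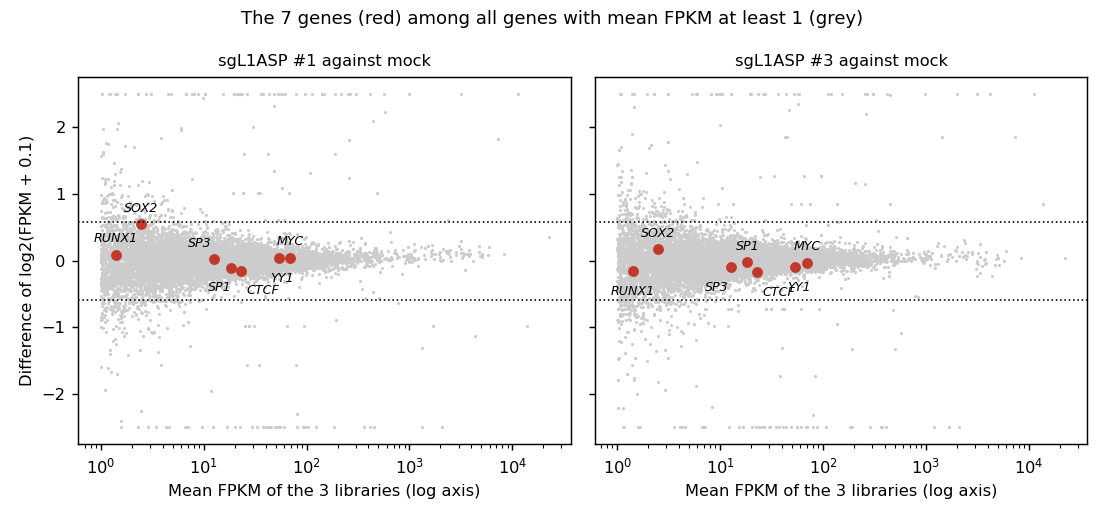
Difference of log2(FPKM + 0.1) against mean FPKM (log axis) for the 12830 genes with mean FPKM of at least 1 (grey) and the 7 factors (red), with sgL1ASP #1 on the left and sgL1ASP #3 on the right. Values beyond the axis are drawn at its edge, and dotted lines mark 1.5-fold. The grey cloud widens toward low FPKM, where *SOX2* and *RUNX1* lie.

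For each factor the gene with the nearest values was sought by Euclidean distance of log2(FPKM + 0.1) over the 3 libraries. It was *NOP14* for *YY1* (distance 0.009), *CCNT1* for *SP1* (0.015), *FMNL2* for *SP3* (0.027), *CDC42* for *MYC* (0.030), *IKZF4* for *RUNX1* (0.031), *C6orf192* for *CTCF* (0.032) and *ZNF222* for *SOX2* (0.068). With 3 values a gene, this likeness is one of level.

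The relatives and partners of the factors were followed in the same way, as 8 lists of 119 genes in all. Mean FPKM was at least 1 for 97 of them. In sgL1ASP #1 against mock 2 passed 1.5-fold upward, beside 1.76% of all genes, and 0 downward, beside 1.79%. In sgL1ASP #3 against mock 2 passed upward, beside 1.75%, and 0 downward, beside 2.05%. Between the guides 0 were past 1.5-fold higher with sgL1ASP #1, beside 1.96%, and 1 was past it lower, beside 1.82%. The median difference of the 97 genes was 0.024, 0.044 and -0.011 in the 3 comparisons, and that of all genes 0.001, 0.001 and -0.003. In either direction 3.55%, 3.8% and 3.77% of all genes passed 1.5-fold. The counts given below for each list stand beside these shares, and a count of 0 is not read as particular to a list.

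Among the SOX genes, *SOX2* and *SOX11* were minor members. *SOX12* had FPKM 22.58 (mock), 24.96 (sgL1ASP #1) and 25.23 (sgL1ASP #3), and was 8.17 to 10.9 times as high as *SOX2*. *SOX4*, like *SOX12* of the same SOX group as *SOX11*, had FPKM 10.9, 12.3 and 12.3. Of 17 SOX relatives, 9 had mean FPKM of at least 1, of which 6 were higher than mock with sgL1ASP #1 and 7 with sgL1ASP #3, with medians of 0.168 and 0.159, beside 50.3% and 50.4% of all genes higher. After rescaling to the same sum these were 6 and 5 of the 9, beside 25% and 20.8% of all genes, and the medians stood 0.170 and 0.157 above those of all genes.

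*SOX18*, a factor of vessel development, passed 1.5-fold with both guides, with FPKM 1.46 (mock), 2.32 (sgL1ASP #1) and 2.83 (sgL1ASP #3). On the log2 scale the differences were 0.63 and 0.91, and they rest on 23, 36 and 37 reads, with counting errors of 0.385 and 0.383. With sgL1ASP #1 the difference fell short of 1.5-fold after rescaling to the same sum, at 0.55, and with a pseudocount of 1, at 0.43, while with sgL1ASP #3 it stayed past it, at 0.81 and 0.64. *SOX3*, the X-linked relative closest to *SOX2*, was chosen after its values were seen. It had FPKM 0.408, 0.878 and 0.614, which is 8, 17 and 10 reads. *SOX1*, the other gene of that group, had 1 read in mock and 0 in the other libraries, and *SOX14* and *SOX17*, also named after their values were seen, were listed at 0 in all 3.

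*RUNX2* had FPKM 0.4972 (mock), 0.3005 (sgL1ASP #1) and 0.5304 (sgL1ASP #3), so that *RUNX1* was the highest of the RUNX genes in every library. *CBFB*, which encodes the subunit that RUNX proteins need to bind DNA firmly, had FPKM 17.95, 18.99 and 17.51, and was 12.4 to 13.7 times as high as *RUNX1*. The corepressor partner *CBFA2T3* was the lowest of this list by mean FPKM, at 0.323, 0.554 and 0.448, with a mean of 0.442 that hardly differs from the 0.443 of *RUNX2*, which was lower in sgL1ASP #1. Of 9 RUNX relatives and cofactors, 6 had mean FPKM of at least 1 and 0 of them passed 1.5-fold.

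Of 24 SP and KLF relatives, which bind GC boxes and CACCC boxes, 18 had mean FPKM of at least 1. *KLF16* was the highest at FPKM 26.1 (mock), 27.7 (sgL1ASP #1) and 27.3 (sgL1ASP #3), above *SP1*. *SP4*, the closest relative of *SP1* and *SP3*, had FPKM 2.88, 2.12 and 2.85, and *SP7*, a bone factor, was listed at 0 in mock and had 0.070 and 0.041 with the guides. The values of *SP7* rest on very few reads, and no gain with the guides is read from them. *KLF2* passed 1.5-fold with sgL1ASP #3, with FPKM 1.06 (mock), 1.20 (sgL1ASP #1) and 1.75 (sgL1ASP #3), a difference of 0.68. *SP8* had FPKM 1.03, 0.821 and 1.37 and was past 1.5-fold lower with sgL1ASP #1 than with sgL1ASP #3, at -0.68. *KLF2* and *SP8* rest on about 29 to 41 reads in a library. Both fell short of 1.5-fold with a pseudocount of 1, and *KLF2* also after rescaling to the same sum.

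*YY2*, a retrogene copy of *YY1*, had FPKM 1.503 (mock), 2.283 (sgL1ASP #1) and 1.853 (sgL1ASP #3), which is 40, 60 and 41 reads, and *YY1* was 24.5 to 36.3 times as high. *YY2* was 0.57 higher with sgL1ASP #1 than with mock on the log2(FPKM + 0.1) scale, short of the limit of 0.585, while its deposited FPKM, with no pseudocount, differed 1.52-fold and passed it. *ZFP42*, the third gene of the family and a marker of pluripotent cells, was listed at 0 in all 3 libraries. The INO80 chromatin remodeler, in which YY1 works, was expressed throughout, with *RUVBL2* highest at FPKM 146.0, 149.3 and 145.6. Of the 17 genes of this list with mean FPKM of at least 1, 0 passed 1.5-fold with the pseudocount, and without it 1, *YY2*, did.

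*CTCFL*, the germline paralog of *CTCF*, had FPKM 0.059 in mock and was listed at 0 with both guides. FPKM this low rests on very few reads, and no loss with the guides is read from it. Of the cohesin genes, *SMC1A* was the highest of the list at FPKM 94.5 (mock), 88.8 (sgL1ASP #1) and 89.1 (sgL1ASP #3), and *RAD21*, at 60.9, 60.4 and 62.0, was 2.46 to 2.83 times as high as *CTCF*. The subunit gene *STAG1*, named after its values were seen, was lower than *CTCF*, at 7.85, 6.44 and 6.33. Of the 14 genes with mean FPKM of at least 1, 0 passed 1.5-fold, and their medians were -0.021 and 0.005.

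*MAX*, the obligate partner of MYC, had FPKM 50.4 (mock), 43.7 (sgL1ASP #1) and 46.6 (sgL1ASP #3), and was the highest gene of its list, while *MYC* was 1.38 to 1.63 times as high. *MYCN* was low at FPKM 0.318, 0.442 and 0.430. Of 12 genes of the MYC network with mean FPKM of at least 1, 0 passed 1.5-fold, and their medians were -0.051 with sgL1ASP #1 and -0.015 with sgL1ASP #3. *PVT1*, a noncoding gene next to *MYC*, had FPKM 5.11, 6.04 and 5.48. *RUNX1-IT1*, a noncoding gene within *RUNX1* that was named after its values were seen, was listed at 0 in all 3 libraries.

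Of 20 well-known MYC target genes, 17 were higher than mock with sgL1ASP #1 and 14 with sgL1ASP #3, beside 50.3% and 50.4% of all genes, and the median difference was 0.051 with either guide. This direction turned after rescaling to the same sum, where 4 were higher with either guide, beside 25% and 20.8% of all genes, while the medians still stood 0.049 and 0.048 above those of all genes. *NPM1*, a nucleolar chaperone, was the highest at FPKM 696.5 (mock), 780.9 (sgL1ASP #1) and 694.2 (sgL1ASP #3). *TERT*, the telomerase reverse transcriptase, was the lowest at FPKM 2.33, 3.79 and 2.95, and with sgL1ASP #1 it was the 1 target past 1.5-fold, at 0.68, on about 93 and 150 reads, and it fell short, at 0.53, with a pseudocount of 1. With sgL1ASP #3 0 of the 20 passed.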

How the data were processed

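A stranded mRNA library for each of mock, sgL1ASP #1 and sgL1ASP #3, all from 293T cells with dCas9-VP64, was sequenced by the authors in single-end mode. Per the labels and the methods, reads were mapped to hg19 with TopHat2 2.0.13, Bowtie2 2.2.3 and SAMtools 0.1.19, and the deposited FPKM per gene were calculated by the authors with Cuffdiff (Cufflinks 2.2.1). The annotation and the library scaling are not given in the sources used here. Samples were grouped by their titles.

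The deposited FPKM were not rescaled. Differences used a pseudocount of 0.1, a gene counted when its mean FPKM was at least 1, and the call was 1.5-fold, with no test, since each condition has 1 library. Depth was estimated from genes with 1 GENCODE transcript longer than 1000 bases, less a fragment of 200 bases, and reads as FPKM times length times depth, with the canonical length for genes of several transcripts. Whole reads were recovered where the 3 FPKM of a gene with 1 transcript fit whole numbers within 2e-05 in relative terms, as 188 of 262 genes with 5 to 50 estimated reads did. Intervals and errors of read numbers cover counting error only. The call was run on simulated libraries with planted changes well past 1.5-fold and counting error only. That run cannot speak to differences near 1.5-fold or to the spread between cultures. The factors and lists were chosen with earlier results of these data known. Every factor is named. Of the other lists, a gene is named when it has mean FPKM of at least 1 and is past 1.5-fold, or is the highest or lowest of its list. Relatives and partners fixed when the lists were chosen are also named. *SOX3*, *SOX14*, *SOX17*, *STAG1* and *RUNX1-IT1* were added after their values were seen. Older names were matched through RefSeq. The planned comparison of paralog proteins was not run, because no protein table was used here. Python 3.11.15, NumPy 2.4.6, pandas 2.3.3 and matplotlib 3.10.9 were used.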

Additional observations from a re-analysis of the deposited data

How the results depend on the processing

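No paired analysis was possible because mock and both guides have 1 library each, and for the same reason no library could be left out. In place of a replicate spread, 1.5-fold served as the limit beyond which a difference, or a count of genes, was taken to depend on a setting. The 105 alternative values of the log2 differences of the 7 factors all stayed within it. That limit is wider than each of these differences, so this outcome says little about how stable they are. The difference of *SOX2* with sgL1ASP #1 ranged from 0.404 (pseudocount 1) to 0.565 (no pseudocount). Rescaling each library to a sum of 1000000 shifts the median of all genes by -0.092 for sgL1ASP #1 and -0.117 for sgL1ASP #3, and turned the sign of the small differences of *MYC*, *RUNX1*, *SP3* and *YY1* with sgL1ASP #1, to -0.056, -0.001, -0.072 and -0.061. The number of factors called was 0 under each alternative but a threshold of 25%, which called 1, *SOX2*, in sgL1ASP #1 against mock and 1, *SOX2*, between the guides, where 10.5% and 10.6% of all genes were called. Of the relatives and partners, 2, 2 and 1 were called in the 3 comparisons. These were 0, 1 and 0 with a pseudocount of 1, beside 1.89%, 2% and 2.23% of all genes. They were 9, 7 and 5 of 119 with no filter on low FPKM, where 9.31%, 9.56% and 9.77% of all genes were called. After rescaling to the same sum they were 1, *TERT*, and 1, *SOX18*, against mock, beside 5.04% and 5.53%. Between the guides 1, *SP8*, was called, beside 5.1%. With no pseudocount, an alternative chosen after seeing the data, they were 3, 2 and 1, the added gene being *YY2*. The shares of all genes were then 3.23%, 3.48% and 3.34%. Nothing particular to the relatives and partners is read from these counts. The read numbers of *SOX2* moved by less than 1.5 times when no fragment was taken from the transcript length.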
